A study of Mus musculus with 4 samples.

Results

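The NF-kB and TNF receptor pathway was examined through 39 genes that were listed by name for their known roles. They were the Rel family subunits, the IkB inhibitors and IkB-like proteins, the IkB kinases with the kinases and adaptors upstream of them, the genes of the noncanonical branch, the TRAF adaptors, the proteins that end the signal, and the TNF receptor family genes best known from T cells. Of the 39 genes 36 had a gene model among the 38588 models of the files, 31 had at least 1 exon read, and 26 had enough reads to be tested. TRAF1, TRAF2 and TRAF6 are not among the gene models used here.

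RNA was sequenced from 2 subsets of CD4+ T cells of mouse spleen, with 2 libraries each. RbLoTem cells were sorted as CD45Rb low, CD44 positive and CD62L negative, the effector/memory phenotype, and RbHiTn cells as CD45Rb high, CD44 negative and CD62L positive, the naive phenotype. Both came from resting mice of strain C57BL/6-Foxp3tm1Flv/J, which carry a fluorescent reporter in the Foxp3 gene, both were sorted as cells lacking FoxP3, and both were then cultured for 72 h on plate-bound anti-CD3 antibody, given as 2 µg in the labels, which stimulates the T cell receptor complex. No unstimulated library was analysed here, so every value compares stimulated RbLoTem cells with stimulated RbHiTn cells. In each subset 1 library bears a label ending in o, and no source used here says what that stands for. Values are given below with the library without this suffix first. Whether the libraries of a subset are from different cultures or mice is not stated, so the p-values reflect only how these particular libraries vary, and that variation may be technical. In bulk RNA, fewer cells of a type and less RNA per cell cannot be told apart.

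The libraries held between 3795660 and 5873287 exon reads. The gene models are human in symbol and position while the RNA was from mice. A model without reads is therefore no sign of a silent gene, and levels of different genes, given as RPKM (reads per kb of exon, scaled to 1000000 reads in genes), are less certain than differences between libraries for the same gene. Summed markers of B cells, dendritic cells, monocytes and macrophages, and NK and CD8 T cells were higher in the RbHiTn libraries, and those of Treg cells were not. Summed over 11 models, B cell markers took 37.9 to 38.7 reads per 1000000 exon reads in RbHiTn and 1.88 to 2.21 in RbLoTem libraries, and CD79A, MS4A1 and BLK were among the 9 models at 0 in both RbLoTem libraries. Dendritic cell markers, over 7 models, took 73.2 to 90.6 and 11.5 to 11.6 on the same scale, with ITGAX, XCR1 and CLEC9A at 0 in every library. This sum came from the other 4 models alone, and whether they mark dendritic cells apart from B cells was not tested. Monocyte and macrophage markers, over 8 models, took 13.7 to 14.0 and 2.11 to 2.55, with LYZ, CD14, CSF1R and CD68 at 0 in every library. T cell markers, over 14 models, took 1146 to 1201 in RbHiTn and 949 to 1005 in RbLoTem libraries, and CD3D, CD2 and CD28 were at 0 in all 4. Naive T cell markers, over 8 models, took 1180 to 1196 and 276 to 287, with KLF2 at 0 in both RbLoTem libraries and IL7R at 0 in both RbHiTn libraries, and effector and memory markers, also over 8 models, took 17.4 to 19.2 and 310 to 312. Markers of NK and CD8 T cells took 18.7 to 23.9 and 0.470 to 1.36, all of it EOMES, with CD8A and CD8B at 0. Markers of Treg cells, over 7 models, took 49.8 to 53.7 and 62.5 to 66.9. TNFRSF4, TNFRSF9 and TNFRSF18, which this list shares with the members, were at 0 in every library, and LRRC32 in both RbLoTem libraries. Of the 3 Treg markers tested, 2 were called higher and 1 lower in RbLoTem cells. Their median change was 2.76 in size on the log2 scale, so the sum joins large changes in opposite directions.

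NF-kB proteins are dimers of Rel family subunits that wait in the cytoplasm of resting cells, held by IkB inhibitors. When the T cell receptor or a TNF family receptor is engaged, TRAF adaptors and ubiquitin chains bring together the kinase MAP3K7 with its partner TAB2 and the IkB kinases, which mark the inhibitors for destruction, while a slower noncanonical branch depends on the kinase MAP3K14, kept low by TRAF3 and the BIRC ubiquitin ligases. Several of the genes switched on by NF-kB encode its own brakes, among them NFKBIA and TNFAIP3, and in T cells the pathway is known for its part in survival, growth and the response to costimulatory receptors.

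Because the pathway is known to regulate its own brakes through its binding sites, promoters of 4 members whose transcripts differed between the subsets are shown first. Each is the window from 250 bases before to 50 bases after a start site in RefSeq (mouse, GRCm38.p6), on the strand of the gene, with matches to the kB consensus in capitals. The search used the usual kB consensus of 10 letters on both strands, and overlapping matches count as separate matches.
Nfkbia chr12:55492598-55492897 (- strand): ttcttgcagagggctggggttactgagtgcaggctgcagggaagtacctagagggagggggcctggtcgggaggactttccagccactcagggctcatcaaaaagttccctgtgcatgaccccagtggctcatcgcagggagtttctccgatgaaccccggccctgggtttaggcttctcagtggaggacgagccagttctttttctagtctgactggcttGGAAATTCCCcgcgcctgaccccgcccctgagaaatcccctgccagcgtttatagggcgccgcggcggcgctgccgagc
Tnfaip3 chr10:19015361-19015660 (- strand): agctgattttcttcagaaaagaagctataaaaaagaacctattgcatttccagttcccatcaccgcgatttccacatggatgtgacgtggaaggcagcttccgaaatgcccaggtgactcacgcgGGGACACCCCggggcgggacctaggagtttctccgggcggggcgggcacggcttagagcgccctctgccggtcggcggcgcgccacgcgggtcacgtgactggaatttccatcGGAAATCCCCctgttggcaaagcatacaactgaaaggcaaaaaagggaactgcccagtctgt
Nfkbid chr7:30422156-30422455 (+ strand): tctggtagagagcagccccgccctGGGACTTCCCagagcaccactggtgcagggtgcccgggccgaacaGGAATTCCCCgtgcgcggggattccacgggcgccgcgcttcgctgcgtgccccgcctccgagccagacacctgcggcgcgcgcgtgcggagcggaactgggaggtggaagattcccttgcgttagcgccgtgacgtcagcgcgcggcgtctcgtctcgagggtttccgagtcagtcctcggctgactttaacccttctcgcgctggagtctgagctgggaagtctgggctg
Ikbke chr1:131279514-131279813 (- strand): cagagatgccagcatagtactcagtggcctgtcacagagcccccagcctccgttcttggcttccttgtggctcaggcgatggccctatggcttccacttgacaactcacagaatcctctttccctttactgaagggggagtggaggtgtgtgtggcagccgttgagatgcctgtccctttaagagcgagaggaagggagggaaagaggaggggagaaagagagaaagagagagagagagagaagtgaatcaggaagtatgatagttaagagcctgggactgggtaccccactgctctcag

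Nfkbia encodes the main IkB inhibitor, and its match lies 29 to 20 bases before the start site. Tnfaip3 encodes a ubiquitin-editing enzyme, and the window shown holds matches from 125 to 116 and from 12 to 3 bases before its start. The window shown for Nfkbid, an IkB-like nuclear protein gene, holds matches at 226 to 217 and 181 to 172 bases before its start. For Tnfaip3 and Nfkbid, which have further start sites, the window shown was picked for holding a match, and their other windows held none. No match was found in the window of Ikbke, which encodes an IkB kinase relative. RefSeq promoters were at hand for 34 of the 39 members, and NFKB1, NFKBIZ, RELB, IKBKB and TRADD were not among them. A match was found in 12 of the 34 members (35.3%), namely Bcl3, Cyld, Map3k7, Nfkbia, Nfkbid, Nfkbie, Rel, Tank, Tnfaip3, Tnfrsf9, Tnip1 and Traf3, and in 1388 of all 27025 genes with a RefSeq promoter (5.14%). Of the members described below as higher in RbLoTem cells 2 of 5 had a match, of those lower 1 of the 4 with a sequence, and of those tested without a call 7 of 13. A match describes letters in a window and does not show that a factor binds there.

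**Figure D1:**
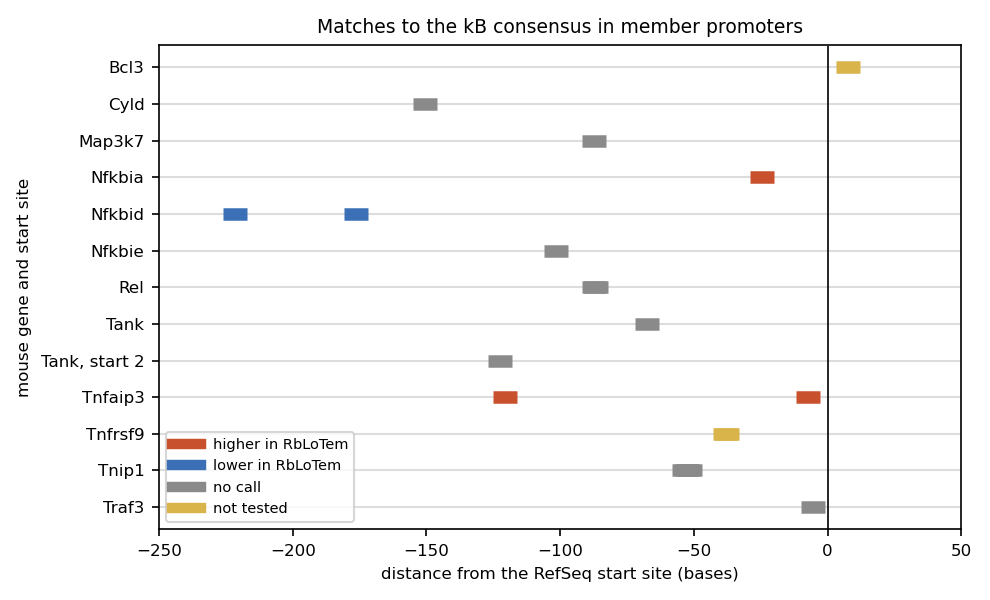
Matches to the kB consensus (thick bars) in RefSeq promoter windows of members, one line per start site, by distance from the start site in bases. Colours give the result for the transcript in RbLoTem against RbHiTn cells, and most of the matching windows belong to genes without a call.

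Transcripts of 12 of the 26 members tested differed between the subsets at an adjusted p under 0.05, by edgeR's quasi-likelihood test with Benjamini-Hochberg adjustment over all models tested. NFKBIA, NFKBIB, TAB2, TNFAIP3 and TNFRSF25 were higher in RbLoTem cells. NFKB1, RELA, NFKBID, NFKBIZ, IKBKB, IKBKE and BIRC2 were lower. The subsets differed widely over the whole transcriptome, and this share of 46.2% stood beside a background of 48.0% of the 6539 models tested. By direction, the 5 higher members were 19.2% of those tested (background 24.3%) and the 7 lower members 26.9% (background 23.6%), so the number of calls is not a result about these members. Only NFKBID, IKBKE and TNFRSF25, 3 of 26, were called and had also changed by 1 or more on the log2 scale, where the background was 14.2%. The RPKM of the libraries did not overlap between the subsets for 16 of 26 members, 7 above and 9 below, against 72.3% of all models tested. The median log2 fold change was -0.03 over the members and -0.01 over all models, and the median size was 0.30 and 0.32.

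**Figure D2:**
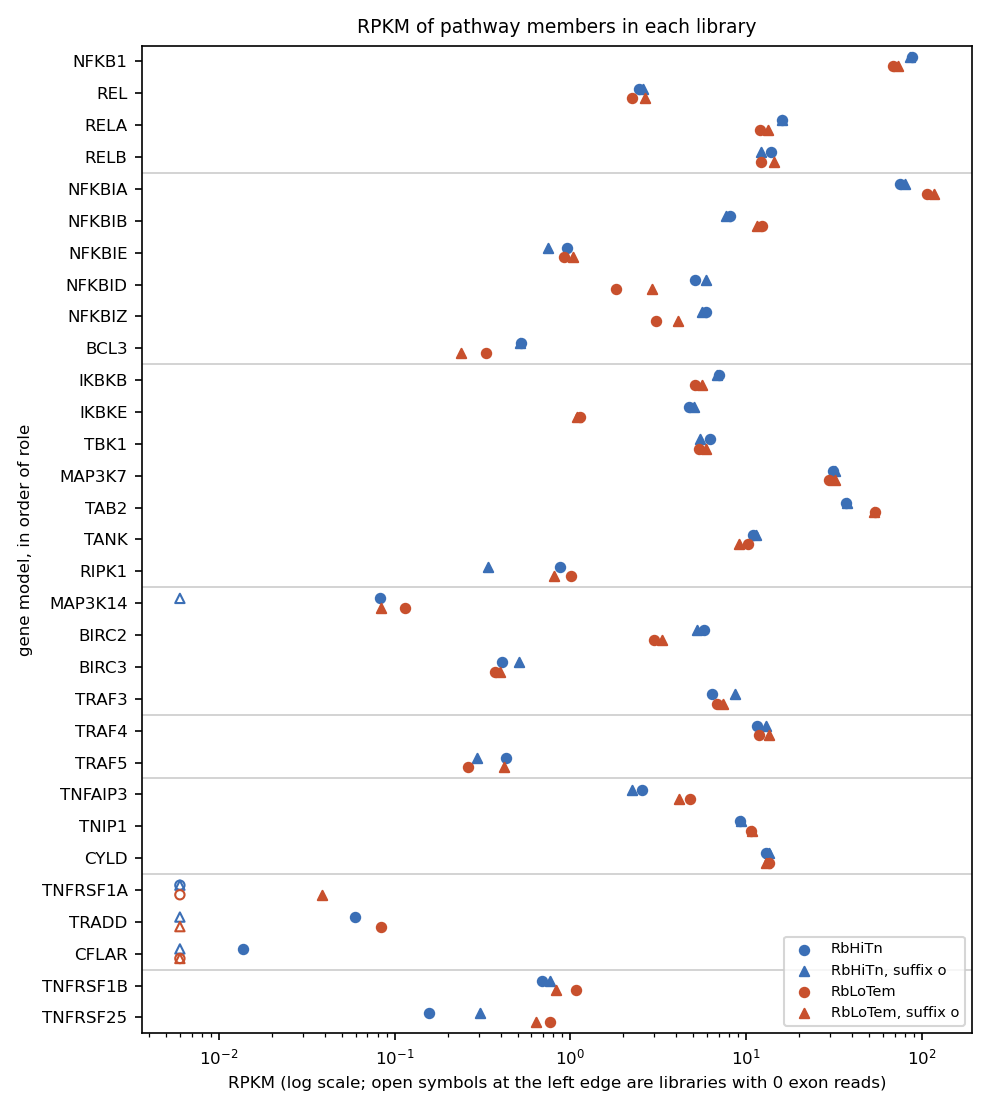
RPKM of the 31 members with reads in each of the 4 libraries, on a log axis and in order of role, with open symbols for libraries with 0 exon reads. NFKB1 and NFKBIA stand at the top in all 4 libraries, IKBKE and NFKBID are set apart to the left in RbLoTem libraries, and TNFRSF25 and TNFAIP3 to the right.

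The Rel family subunits are the DNA-binding part of the pathway, and 2 of the 4 were called, both lower in RbLoTem cells. This is 50% of the family, where the background was 48.0% called in either direction and 23.6% called lower. With 4 genes the count is not a result about the family. NFKB1, which encodes the precursor of the p50 subunit, was at 87.7 and 85.8 RPKM in the RbHiTn libraries and 68.3 and 73.0 in the RbLoTem libraries. RELA, the gene of the p65 subunit that carries the activation domain, was at 15.9 and 15.9 RPKM and at 12.0 and 13.4. For both genes the RbLoTem libraries lay below the RbHiTn libraries without overlap, and the differences were small. The log2 fold change was -0.29 for NFKB1 (standard error 0.06, edgeR adjusted p = 5.7e-05). For RELA it was -0.31 (standard error 0.09, edgeR adjusted p = 0.0045), and this call was lost without the RbLoTem library without the suffix (adjusted p = 0.054) and by DESeq2 (adjusted p = 0.079).

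REL and RELB overlapped between the subsets. REL encodes c-Rel, a subunit known for its part in lymphocyte activation, and its libraries were at 2.47 and 2.59 RPKM in RbHiTn and 2.22 and 2.64 in RbLoTem cells, with a 95% interval of the log2 fold change from -0.31 to 0.24. RELB, the partner of the noncanonical branch, was at 13.8 and 12.2 RPKM in RbHiTn and 12.1 and 14.4 in RbLoTem cells, with an interval from -0.22 to 0.28. These intervals still hold changes of such sizes in either direction.

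The inhibitors moved in both directions. The cytoplasmic inhibitors NFKBIA and NFKBIB rose in RbLoTem cells and the nuclear IkB-like genes NFKBID and NFKBIZ fell. NFKBIA, which encodes IkB alpha, had 1160 and 800 exon reads in the RbHiTn libraries and 1177 and 1791 in the RbLoTem libraries. Per length and depth these were 75.0 and 80.4 RPKM in RbHiTn and 106 and 117 in RbLoTem cells, so the subsets did not overlap. Its log2 fold change was 0.54 (standard error 0.07, edgeR adjusted p = 3.5e-08), which is 1.45-fold. NFKBIB, which encodes IkB beta, was at 8.06 and 7.70 RPKM in RbHiTn and 12.3 and 11.5 in RbLoTem cells, and again every RbLoTem library lay above. Its log2 fold change was 0.59 (standard error 0.14, edgeR adjusted p = 0.00094).

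NFKBID encodes a nuclear IkB-like protein that binds Rel dimers on DNA, known in T cells for its part in cytokine expression. It was at 5.09 and 5.89 RPKM in the RbHiTn libraries and 1.81 and 2.92 in the RbLoTem libraries, which did not overlap but differed from each other. The log2 fold change was -1.15 (standard error 0.21, edgeR adjusted p = 2.7e-05), a level 2.21-fold lower in RbLoTem cells, and it ran from -1.58 without the RbLoTem library with the suffix to -0.89 without the other. NFKBIZ, another nuclear member of this group, was at 5.92 and 5.63 RPKM in RbHiTn and 3.06 and 4.09 in RbLoTem cells. Both RbLoTem libraries were the lower ones, and the log2 fold change was -0.66 (standard error 0.16, edgeR adjusted p = 0.00073).

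The remaining members of this group had low read counts. NFKBIE, the gene of IkB epsilon, had 16 and 8 exon reads in RbHiTn and 11 and 17 in RbLoTem libraries, and its subsets overlapped, with an interval of the log2 fold change from -0.66 to 1.01. BCL3, a nuclear coactivator gene, had 11 and 7 reads in RbHiTn and 5 and 5 in RbLoTem libraries, too few for the fit. Its ratio of depth-scaled reads was 0.529 in RbLoTem over RbHiTn cells, with an exact 95% counting interval of 0.218 to 1.21, so no difference was detectable. Such intervals cover counting error only.

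IKBKE fell most among the members. It encodes IKK epsilon, a kinase of the IkB kinase family known from interferon responses and inducible in lymphocytes. It had 110 and 75 exon reads in the RbHiTn libraries and 19 and 25 in the RbLoTem libraries, or 4.73 and 5.01 against 1.14 and 1.09 RPKM. The libraries of a subset lay close together and the subsets far apart. The log2 fold change was -2.11 (standard error 0.23, edgeR adjusted p = 2.7e-09), a level 4.33-fold lower in RbLoTem cells. Reads that cross exon junctions made up 95.7% of its exon reads in RbHiTn and 95.5% in RbLoTem cells, and junction reads alone gave a log2 fold change of -2.15. Markers of B cells and of dendritic cells, listed above, were also lower in RbLoTem cells, as they were beside NFKBID and the other lower members, and their part in these results was not tested.

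TBK1 encodes the closest relative of IKK epsilon. It was at 6.25 and 5.46 RPKM in RbHiTn and 5.38 and 5.90 in RbLoTem cells, which overlapped, with a 95% interval of the log2 fold change from -0.44 to 0.33. The interval of IKBKE, from -2.58 to -1.65, lies wholly below it, and the difference between these genes was not tested otherwise. TANK, an adaptor that binds both kinases, was at 10.9 and 11.3 RPKM in RbHiTn and 10.2 and 9.11 in RbLoTem cells, lower without overlap, but did not pass the test (edgeR adjusted p = 0.098). Only 64.7% of the TANK reads matched a single place, the lowest share among the members tested.

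Among the genes of the canonical branch, IKBKB was slightly lower and TAB2 higher in RbLoTem cells. IKBKB, the gene of the catalytic kinase of the canonical branch, was at 7.02 and 6.77 RPKM in RbHiTn and 5.11 and 5.62 in RbLoTem cells. The subsets did not overlap, and the log2 fold change was -0.35 (standard error 0.10, edgeR adjusted p = 0.0035). This call was lost without the RbHiTn library without the suffix (adjusted p = 0.059) and by DESeq2 (adjusted p = 0.072). TAB2, which binds ubiquitin chains and activates MAP3K7, was at 37.0 and 37.4 RPKM in RbHiTn and 53.7 and 53.4 in RbLoTem cells. The subsets did not overlap, and its log2 fold change was 0.53 (standard error 0.06, edgeR adjusted p = 7.4e-09). MAP3K7 itself, also known as TAK1, was at 31.2 and 32.0 RPKM in RbHiTn and 29.4 and 31.8 in RbLoTem cells, and its interval was narrow, from -0.16 to 0.10 on the log2 scale. RIPK1, a kinase and scaffold at TNF receptors, had 24 and 6 exon reads in RbHiTn and 20 and 22 in RbLoTem libraries, overlapped, and had a wide interval from -0.33 to 1.24. Its log2 fold change of 0.45 was 1.40 without the RbHiTn library without the suffix and 0.03 without the other RbHiTn library, and it was called in neither case (edgeR adjusted p = 0.054 and 0.96).

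**Figure D3:**
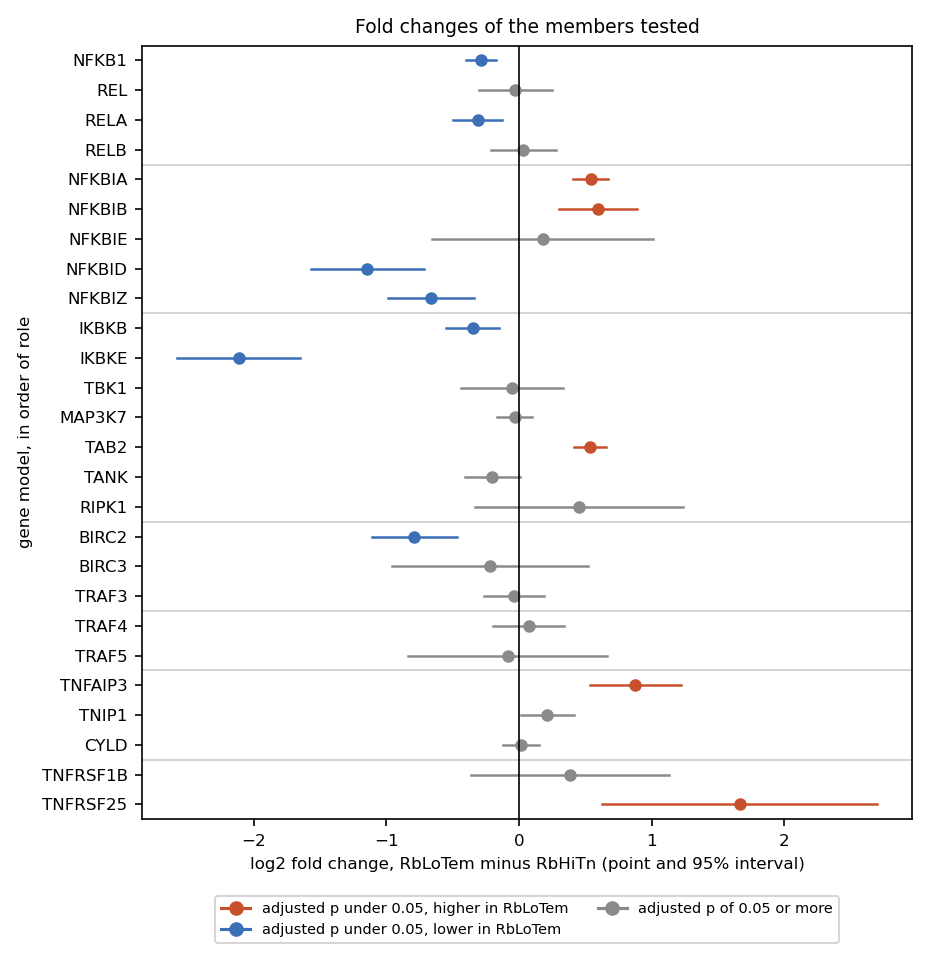
Log2 fold change (RbLoTem minus RbHiTn) of the 26 members tested, with 95% intervals from edgeR, in order of role. IKBKE lies farthest to the left at -2.11 and TNFRSF25 farthest to the right at 1.66 with the widest interval.

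In the noncanonical branch BIRC2 was the only member called. BIRC2 encodes a ubiquitin ligase that, with TRAF3, directs the breakdown of the kinase MAP3K14. Its libraries were at 5.72 and 5.24 RPKM in RbHiTn and 2.99 and 3.31 in RbLoTem cells, without overlap, and the log2 fold change was -0.79 (standard error 0.16, edgeR adjusted p = 8.5e-05). BIRC3, its neighbour and near copy on mouse chromosome 9, had 20 and 16 exon reads in RbHiTn and 13 and 19 in RbLoTem libraries and an interval from -0.96 to 0.52. Of the reads given to the BIRC2 model 99.8% matched a single place, but reads of such close copies can be assigned to the wrong gene on models of another species, so the split between BIRC2 and BIRC3 is uncertain. TRAF3 was at 6.39 and 8.57 RPKM in RbHiTn and 6.81 and 7.36 in RbLoTem cells, with all RbLoTem values inside the RbHiTn range and an interval from -0.27 to 0.19. MAP3K14 had 3 exon reads in all, which supports no comparison.

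The other TRAF adaptors with a model did not differ detectably. TRAF4 was at 11.5 and 13.0 RPKM in RbHiTn and 11.8 and 13.4 in RbLoTem cells, with an interval of the log2 fold change from -0.20 to 0.34. TRAF5, which serves costimulatory TNF receptors, had 25 and 11 exon reads in RbHiTn and 11 and 24 in RbLoTem libraries, with a wide interval from -0.84 to 0.67. Both overlapped between the subsets.

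Among the proteins that end the signal, TNFAIP3 rose in RbLoTem cells. TNFAIP3 encodes a ubiquitin-editing enzyme that takes apart the chains on which the IkB kinases are activated. It had 84 and 47 exon reads in the RbHiTn libraries and 113 and 134 in the RbLoTem libraries, or 2.57 and 2.23 against 4.81 and 4.15 RPKM. The subsets did not overlap, and the log2 fold change was 0.88 (standard error 0.17, edgeR adjusted p = 6.1e-05), which is 1.84-fold. TNIP1, a ubiquitin-binding partner of TNFAIP3, was at 9.24 and 9.36 RPKM in RbHiTn and 10.6 and 10.8 in RbLoTem cells. Its libraries did not overlap either, but it did not pass the test (log2 fold change 0.21, edgeR adjusted p = 0.068). CYLD, a deubiquitinase with a similar task, was at 13.0 and 13.5 RPKM in RbHiTn and 13.5 and 13.0 in RbLoTem cells, and its interval of -0.13 to 0.15 was among the narrowest of the members.

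The receptors had few or no reads. Of 8 TNF receptor family members with a model 3 had any exon read and 2 could be tested, while all 28 other members with a model had reads. TNFRSF4, TNFRSF9, TNFRSF14, TNFRSF18 and CD27, costimulatory receptors of T cells, had 0 exon reads in all 4 libraries. At this depth 0 reads over the libraries of a subset allow, at 3 reads, an RPKM of up to 0.348 in RbHiTn and 0.335 in RbLoTem cells for the short model of TNFRSF9, and of up to 0.045 and 0.043 for the long model of TNFRSF14. These limits apply to reads that match the human models and not to the mouse transcripts. In the mouse genome (GRCm38.p6) the genes Tnfrsf1b, Tnfrsf4, Tnfrsf9, Tnfrsf14, Tnfrsf18 and Tnfrsf25 all lie on chromosome 4.

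TNFRSF25 encodes a death domain receptor that costimulates T cells and was the only receptor called. It had 4 and 5 exon reads in the RbHiTn libraries and 14 and 16 in the RbLoTem libraries, higher in both RbLoTem libraries. The log2 fold change was 1.66 (standard error 0.51, edgeR adjusted p = 0.0072), and the ratio of depth-scaled reads was 3.18, with a counting interval of 1.47 to 7.61. None of its 39 reads crossed an exon junction, so junction reads could not repeat the result. The call was lost without the RbHiTn library without the suffix (log2 fold change 1.18, adjusted p = 0.15) and by DESeq2 (adjusted p = 0.16), and over the alternatives the adjusted p ran from 0.0031 to 0.16. TNFRSF1B, the TNF receptor best known from T cells, had 17 and 12 reads in RbHiTn and 19 and 20 in RbLoTem libraries, with an interval of the log2 fold change from -0.36 to 1.13.

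TNF receptor 1 and its death signalling partners were hardly seen. TNFRSF1A had 1 exon read and TRADD, its adaptor, had 2 reads in all. CFLAR, which encodes an inhibitor of death receptor signalling, had 2 exon reads, both in the RbHiTn library without the suffix, but 89 further reads of its gene model lay outside its exons. Reads outside exons were otherwise rare. They were found for 6 members, with 18 for TNFAIP3, 6 for TAB2, 5 for TNFRSF1B, 3 for NFKBIE and 2 for BCL3, and for no other member.

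The order of levels changed at the top, on RPKM scaled by the exon lengths of the human models. Whether libraries overlap does not show how well those lengths suit the mouse transcripts, so any order between genes is uncertain to that extent. In RbHiTn cells NFKB1 had the highest mean RPKM of the members, 86.8 ± 1.33 (SD, n = 2), with NFKBIA next at 77.7 ± 3.80, and the libraries of these neighbours did not overlap. In RbLoTem cells NFKBIA came first at 112 ± 7.93 and NFKB1 followed at 70.7 ± 3.29. TAB2 and MAP3K7 held ranks 3 and 4 in both subsets, each apart from its neighbours. Below them order was less certain, since 16 of 30 neighbouring pairs in RbHiTn and 13 of 30 in RbLoTem cells overlapped. CYLD, RELB and TRAF4 were among such overlapping neighbours in both. IKBKE fell from rank 18 to rank 20 and TNFAIP3 moved from rank 20 to rank 15. In all, 9 members had a mean RPKM of at least 10 in RbHiTn and 10 in RbLoTem cells, and 11 members with reads stayed under 1 in both.

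Other genes of the pathway were taken from a list of 49, of which 27 could be tested. In RbLoTem cells 11 were higher (40.7%, background 24.3%) and 8 lower (29.6%, background 23.6%), so 70.4% of those tested were called beside the background of 48.0%. Their median log2 fold change was 0.15, beside -0.01 over all models. The list was chosen with earlier results of these data known, so its share of calls is not a result about the pathway. TBKBP1, which encodes an adaptor that binds TBK1, had 4 and 4 exon reads in RbHiTn and 103 and 119 in RbLoTem libraries, a ratio of depth-scaled reads of 26.4 (counting interval 13.2 to 62.0), with an edgeR adjusted p of 9.7e-14. MAP3K1, a kinase gene, fell with a log2 fold change of -1.35 (edgeR adjusted p = 4.2e-06), and TAX1BP1, a partner of TNFAIP3, rose from 33.9 and 35.6 RPKM in RbHiTn to 90.2 and 79.6 in RbLoTem cells (log2 fold change 1.30, edgeR adjusted p = 9.9e-17). NFKB2, CHUK and IKBKG, which encode a further subunit and further parts of the IkB kinase complex, are not among the gene models used here.

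Ligands and further receptors were poorly covered. Of 18 TNF superfamily ligands 11 had a model and 2 could be tested. LTB, the gene of lymphotoxin beta, was at 36.2 and 38.2 RPKM in RbHiTn and 9.76 and 10.4 in RbLoTem cells, far apart, and its log2 fold change was -1.86 (standard error 0.13, edgeR adjusted p = 1.2e-13). None of its 781 exon reads crossed an exon junction, so junction reads could not repeat this result. FASLG, the gene of Fas ligand, was at 2.92 and 2.40 RPKM in RbHiTn and 2.71 and 2.96 in RbLoTem cells and overlapped. Of 18 further TNF receptor superfamily genes 10 had a model and only RELT could be tested, without a call (edgeR adjusted p = 0.89).

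Genes known as NF-kB targets moved in both directions. Of 48 listed 14 could be tested, and 5 were higher (35.7%, background 24.3%) and 4 lower (28.6%, background 23.6%) in RbLoTem cells. Together these were 64.3% beside the background of 48.0%, with a median log2 fold change of -0.13. This list too was chosen with earlier results known, so its share of calls is not a result about the targets. IRF4, a transcription factor gene of activated lymphocytes, rose from 18.3 and 20.9 RPKM in RbHiTn to 62.1 and 62.3 in RbLoTem cells (edgeR adjusted p = 1.2e-19). CCR7, a chemokine receptor gene of naive T cells, fell from 41.1 and 36.7 to 6.14 and 4.90 RPKM (edgeR adjusted p = 2.1e-18). None of the 1208 exon reads of CCR7 crossed an exon junction. CCL5, a chemokine gene of memory and effector cells, had only 6 and 1 exon reads in RbHiTn and 11 and 13 in RbLoTem libraries, with an edgeR adjusted p of 0.015, and LTB is also on this list.

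**Figure D4:**
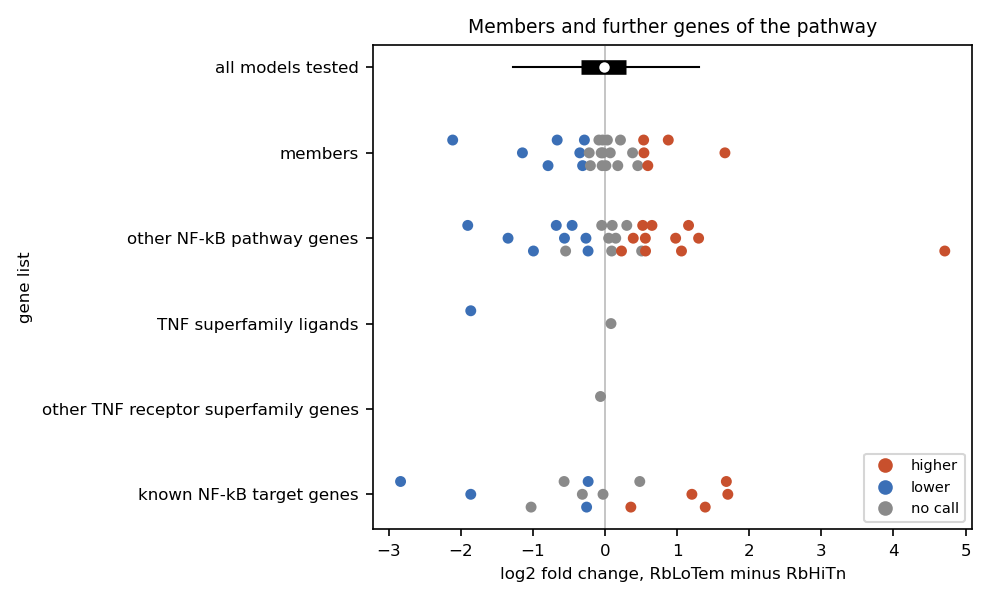
Log2 fold changes (RbLoTem minus RbHiTn) of the tested genes of each list, as points coloured by call. The bar at the top spans the 5th to 95th percentile of all 6539 models tested, -1.28 to 1.30, with the thick part from the 25th to the 75th, and most members lie within the thin bar while TBKBP1 lies far outside it at 4.71.

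Each of the 12 called members had the same sign in every alternative treatment of the data that gave it a value, 15 for 11 of them and 14 for TNFRSF25, which junction reads could not test. The calls of 9 held in all 15. The exceptions were RELA, IKBKB and TNFRSF25, whose values are given above. In the other called members the log2 fold change ran, for example, from 0.46 to 0.65 for NFKBIA and from 0.69 to 1.01 for TNFAIP3. For IKBKE it ran from -2.15 to -1.47, the latter on the log2(RPKM + 1) scale, which understates changes of low genes.

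**Figure D5:**
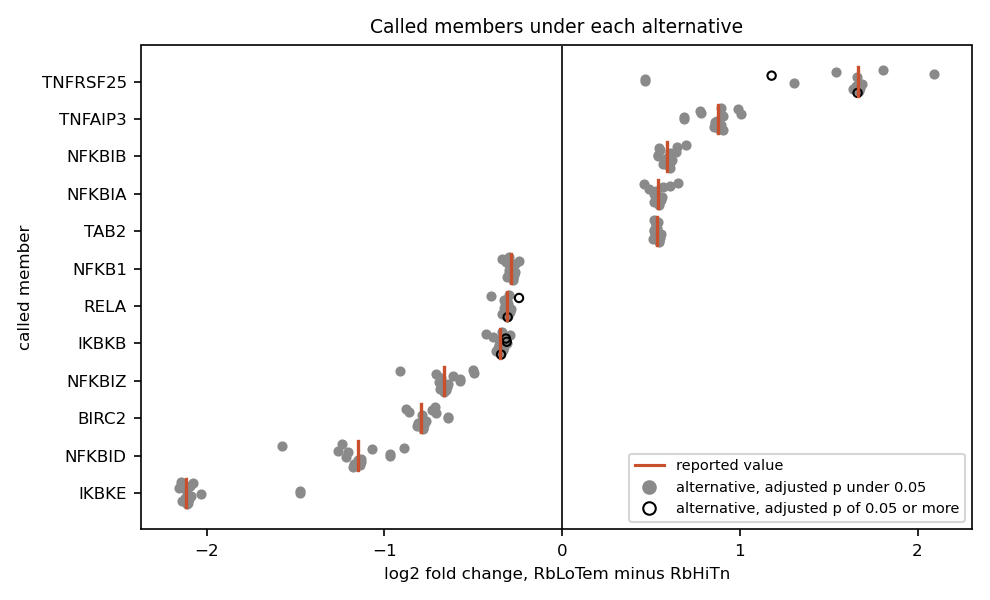
Log2 fold change (RbLoTem minus RbHiTn) of the 12 called members as reported (line) and under each alternative (points, open where the adjusted p was 0.05 or more). No point lies on the other side of 0 from its line, and open points appear only for RELA, IKBKB and TNFRSF25.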

How the data were processed

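The submitters' notes and the study's methods list mm10, DESeq2, HTSeq, Trimmomatic and TopHat. The deposited tables have another layout, with read counts per gene model (total and unique exon reads, gene reads, exon-junction reads) on human symbols and positions. The sources used here do not give the aligner, the annotation or any use of strand for these tables. The deposited RPKM values divide exon reads by exon length in kb and by gene reads scaled to 1000000, within 1% for 100% of values above 0. A median coverage signal, also deposited, was left unused.

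Exon reads numbered 5858942 and 3795660 in the RbHiTn and 4258720 and 5873287 in the RbLoTem libraries. Of 38588 models 6539 passed filterByExpr. They entered a quasi-likelihood fit in edgeR 4.0.16 (R 4.3.3) with TMM factors and no covariate, tested two-sided with Benjamini-Hochberg adjustment at a threshold of 0.05. Standard errors are the log2 fold change divided by the square root of F. Libraries of a subset differed beyond sampling noise (chi-square per degree of freedom 2.15 in both). Alternatives were DESeq2 1.42.0, limma 3.58.1 on log2 RPKM with an added 0.1 or 1, other scaling, filters and read types, the label suffix as block, and each library left out. The edgeR fit was tested on simulated data. All members were named, and of each other list up to 4 called genes with the largest changes. Some genes that this rule takes are not reported here. Members and lists were chosen with earlier results of these data known. Promoters came from RefSeq.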

Additional observations from a re-analysis of the deposited data

Results flagged for a closer look

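CFLAR was marked because reads lay outside the measurement that was compared. Its gene model, with 2 exon reads over the 4 libraries, had 89 reads outside exons, 42 and 17 in the RbHiTn libraries and 14 and 16 in the RbLoTem libraries, so 97.8% of its 91 gene reads were not exonic, the highest share among the members. Where in the gene model these reads lie is not given in the files, and no test was made of them here beyond that of total gene reads.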

How the results depend on the processing

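Of the 26 members 12 were called as reported. The count was 9 by DESeq2 (without IKBKB, RELA and TNFRSF25), 11 by limma on log2(RPKM + 1) with no filter (without IKBKB), and 14 on total gene reads, which added TNIP1 (adjusted p = 0.049) and CFLAR (log2 fold change -1.01, adjusted p = 0.031). It was 11 on exon-junction reads, a choice made after seeing the data, in which TNFRSF25 had no reads. Leaving out each library in turn gave 10 to 12, where the lone library of a subset is assumed to vary like the other subset, and all other alternatives gave 12. Over all models DESeq2 called 991 lower in place of 1545, and 2107 in place of 3137 in all, and the cause was not tested. With the suffix as a replicate block 12 members were called, the same 12, and 3092 models. Deviations of libraries that share a suffix had a correlation of -0.015. Signs of fold changes past the threshold in neither setting were not counted as directions. Of the members tested 7 had fewer than 50 reads in a subset, IKBKE among them, and 5 others had too few reads for the fit, and the parts of depth and of the human models in this were not tested.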

Other observations

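Ratios between members within a library, chosen after their values were seen and given without a test, showed how the inhibitor and the subunits stood to each other. The RPKM of NFKBIA over the summed RPKM of NFKB1 and RELA was 0.724 and 0.790 in the RbHiTn libraries and 1.32 and 1.36 in the RbLoTem libraries. NFKBIA over NFKBID was 14.7 and 13.6 in RbHiTn and 58.7 and 40.2 in RbLoTem cells. IKBKE over its relative TBK1 was 0.757 and 0.919 in RbHiTn and 0.212 and 0.185 in RbLoTem cells. In all 3 ratios the subsets did not overlap. For the ratios of NFKBIA this follows from the values given above, since the genes compared had moved in opposite directions without overlap. The ratio of IKBKE to TBK1 restates the difference in IKBKE, as TBK1 overlapped between the subsets. The ratios are therefore no further evidence.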
